A study of Mus musculus with 12 samples.

Results

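The BCL2 family holds the proteins that decide whether a cell opens the outer membrane of its mitochondria and dies by apoptosis. A set of its genes, taken by name, are described here: 10 of the 52636 genes listed in each of the deposited count tables. They are the pro-survival genes *Bcl2*, *Bcl2l1* (BCL-XL), *Mcl1*, *Bcl2a1b* and *Bcl2a1d* (copies of A1), the pore-forming effectors *Bax* and *Bak1*, and the BH3-only genes *Bcl2l11* (BIM), *Pmaip1* (NOXA) and *Bid*. Each of the 10 names was found in both tables. The clearest change was in macrophages, where *Bcl2l1* was 5.08-fold lower after calcitonin gene-related peptide (CGRP), while in neutrophils none of the members passed the test.

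CGRP is a neuropeptide released by sensory nerves. The study asked how it alters myeloid cells, with 4 groups of 3 libraries, 12 in all, from wild-type C57BL/6 J mice aged 8 to 12 weeks, with no genetic change in any group. Neutrophils enriched from bone marrow were kept for 4 h in RPMI medium with 1 nM CGRP or with saline (PBS) only. Bone marrow monocytes were grown for 3 days in DMEM/F12 with the macrophage growth factor M-CSF (10 ng/ml) before the same 4 h with 1 nM CGRP or saline; the labels call them monocyte/macrophage and they are called macrophages here. Since the 2 cell types also differ in culture time, medium and M-CSF, cell type and culture cannot be told apart. The sources do not say whether libraries of a group came from separate mice or cultures, so p-values measure only the spread between these libraries, which may be technical. Total counts per library lay between 2719556 and 3631989 in saline neutrophils, 2196558 and 3270388 in CGRP neutrophils, 2536415 and 3477069 in saline macrophages, and 2002559 and 3259073 in CGRP macrophages. The library numbered 3 had the fewest counts in each of the 4 groups. Relative to these unscaled totals 3 counts, taken as the floor of detection, were worth 0.826 to 1.498 CPM (counts scaled to library size). This limit covers counting error only. All other CPM are relative to scaled totals, as given with the processing, on which 3 counts can lie outside that range.

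Pro-survival members hold BAX and BAK in check by binding them or the BH3-only proteins, and the cell survives while they dominate. BH3-only proteins are the sensors: they neutralize pro-survival members, each with its own preferences, and some also activate BAX and BAK directly. Once active, BAX and BAK form pores that release cytochrome c, which builds the apoptosome and activates caspases. Neutrophils are short-lived and are known to depend on MCL-1, and A1 is an inducible member of haematopoietic cells. CGRP acts through the receptor CALCRL with RAMP1, which raises cyclic AMP, and cyclic AMP can act on genes through factors that bind the cyclic AMP response element (CRE).

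The promoter windows of 5 members are shown. They are the genes the results turn on (*Bcl2l1* and *Bid*) and a member with a CRE core close to its RefSeq start (*Mcl1*). The others are the near-identical A1 copies that the counting has to tell apart, of which *Bcl2a1d* also has a core close to its RefSeq start. They are RefSeq windows of 300 bases on GRCm38.p6, given 5′ to 3′ on the strand of the gene, and capitals mark TGACG or its reverse complement CGTCA, the core of the CRE. The windows lie at chr2:152831679-152831978 on the minus strand (*Bcl2l1*, the outermost of its 3 RefSeq starts), chr6:120916775-120917074 on the minus strand (*Bid*), chr3:95658471-95658770 on the plus strand (*Mcl1*), chr9:89199023-89199322 on the plus strand (*Bcl2a1b*) and chr9:88731801-88732100 on the minus strand (*Bcl2a1d*).
Bcl2l1: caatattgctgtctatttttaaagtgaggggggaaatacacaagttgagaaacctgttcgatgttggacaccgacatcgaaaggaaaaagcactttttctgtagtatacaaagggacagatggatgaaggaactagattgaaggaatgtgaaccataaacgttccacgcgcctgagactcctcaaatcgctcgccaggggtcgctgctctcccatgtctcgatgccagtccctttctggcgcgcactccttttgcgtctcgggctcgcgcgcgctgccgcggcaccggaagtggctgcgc
Bid: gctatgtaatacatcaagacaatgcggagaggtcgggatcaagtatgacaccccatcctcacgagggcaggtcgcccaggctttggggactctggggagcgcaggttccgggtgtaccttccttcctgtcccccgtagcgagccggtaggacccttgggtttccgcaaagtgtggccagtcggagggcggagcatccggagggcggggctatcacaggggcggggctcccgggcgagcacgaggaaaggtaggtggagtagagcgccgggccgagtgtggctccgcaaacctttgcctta
Mcl1: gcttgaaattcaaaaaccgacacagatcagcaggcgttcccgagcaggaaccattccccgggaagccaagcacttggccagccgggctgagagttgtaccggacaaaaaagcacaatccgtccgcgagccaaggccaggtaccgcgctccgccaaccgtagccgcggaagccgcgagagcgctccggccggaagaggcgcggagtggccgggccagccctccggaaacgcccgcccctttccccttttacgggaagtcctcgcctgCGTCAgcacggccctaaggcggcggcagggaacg
Bcl2a1b: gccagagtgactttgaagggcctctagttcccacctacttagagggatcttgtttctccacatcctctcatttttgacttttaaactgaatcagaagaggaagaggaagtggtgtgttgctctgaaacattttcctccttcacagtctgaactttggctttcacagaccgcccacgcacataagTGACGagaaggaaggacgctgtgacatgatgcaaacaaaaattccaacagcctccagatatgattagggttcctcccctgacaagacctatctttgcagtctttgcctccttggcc
Bcl2a1d: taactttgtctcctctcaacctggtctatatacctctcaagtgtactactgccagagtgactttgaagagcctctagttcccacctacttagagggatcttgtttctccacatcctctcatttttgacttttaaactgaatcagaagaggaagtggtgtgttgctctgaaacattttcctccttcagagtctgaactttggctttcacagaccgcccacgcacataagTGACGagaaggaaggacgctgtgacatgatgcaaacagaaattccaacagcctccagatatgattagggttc

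RefSeq windows were matched for 9 of the 10 members (not *Pmaip1*), 12 windows in all. The full CRE, TGACGTCA, which reads the same on both strands and contains the core, was in none of the 12 windows and in 588 of 32851 promoter windows of all genes (1.79%). The core on either strand was in 4 of the 12 (33.3%) and in 6837 of the 32851 (20.8%). Counted from the RefSeq start, it began at −107 in *Bcl2*, at 16 after the start in *Mcl1*, at −66 in *Bcl2a1b* and at −22 in *Bcl2a1d*. The cores of the A1 copies lie in the same stretch of sequence, and their offsets differ with the RefSeq starts. RefSeq starts can also differ from the gene body ends given below, so the offsets hold for RefSeq starts only. None of the 3 *Bcl2l1* windows held the core. Aligned with each other, the *Bcl2a1b* and *Bcl2a1d* windows shared 250 bases outside alignment gaps, of which 247 were identical and 3 differed. These are matches of letters in a window and do not show where a factor binds.

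All 10 genes are annotated as protein coding. On GRCm38 the gene bodies of 9 of them, other than *Pmaip1*, span chr1:106538178-106714274 (*Bcl2*), chr2:152780668-152831728 (*Bcl2l1*), chr2:128126038-128162547 (*Bcl2l11*), chr3:95658788-95663176 (*Mcl1*), chr6:120891930-120916853 (*Bid*), chr7:45461697-45466898 (*Bax*), chr9:88723285-88731914 (*Bcl2a1d*), chr9:89199209-89207827 (*Bcl2a1b*) and chr17:27019810-27029009 (*Bak1*). The reads came from cDNA primed at the poly-A tail, so what matters for the counting is how much of a transcript's 3′ end is its own. Of the 31-base stretches in the last 500 bases, 93.4% of those of *Bcl2a1b* and 97.7% of those of *Bcl2a1d* also occur in another gene, mostly another A1 copy, so that single-copy values of A1 are uncertain. The share of stretches found in another gene was 21.5% for *Bid*, whose exons overlap those of *Bcl2l13* on the opposite strand by 628 bases. It was 17.1% for *Bax*, mostly with *Gm45808* (0 counts in all libraries), and 5.20% for *Bak1*, with *Ggnbp1* (at most 11 counts in any library). *Gm45808* overlaps the exons of *Bax* by 192 bases on the same strand. How reads shared by genes were counted is not given in the sources used here. The 0 counts of *Gm45808* and *Gm29094* therefore do not show that *Bax* and *Bcl2a1b* lost no reads. The strand setting of the counting is not given in the sources used here, so reads of *Bid* and *Bcl2l13* could not be told apart in their overlap.

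The labelled cell types were checked with marker genes. The 12 neutrophil markers summed to between 161265 and 235741 CPM in the neutrophil libraries and to between 312 and 461 CPM in the macrophage libraries, with *S100a8* the most abundant in both. The 12 macrophage and monocyte markers summed to between 14762 and 17659 CPM in macrophages, led by *Cd63*, and to between 3339 and 4506 CPM in neutrophils, led by *Ly6c2*, a gene of monocytes and immature myeloid cells. The neutrophil libraries also held 9 erythroid markers at 6058 to 7590 CPM, led by *Hbb-bs*, and 6 stem and progenitor markers at 3112 to 3859 CPM, led by *Elane*, with no marker of either list at 0. They held 6 mast cell and basophil markers at 962 to 1153 CPM, led by *Prss34*, and 5 eosinophil markers at 552 to 664 CPM, led by *Prg2*, again with none at 0. In macrophages the erythroid sum was 21.0 to 30.5 CPM with *Slc4a1* at 0. Sums there were higher for 6 megakaryocyte and platelet markers (638 to 989 CPM) and 6 dendritic cell markers (155 to 199 CPM). Each of these sums was nearly all 1 gene. In saline macrophages *Pf4* held 770 of a mean 774 CPM, and *Bst2* held 172 of 177 CPM with *Xcr1* at 0. Only 2 markers of each list had enough counts there to be tested. In bulk RNA like this, fewer cells of a type and less RNA per cell cannot be told apart.

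In macrophages, 3 of the 10 members changed with CGRP: *Bcl2l1* and *Bid* fell and *Pmaip1* rose. Genes were compared by limma-voom on the 6 libraries of a cell type, two-sided, with Benjamini-Hochberg adjustment over all genes tested, and 698 of the 9393 genes tested passed an adjusted p of 0.05 (7.43%; 325 higher, 3.46%, and 373 lower, 3.97%). The median log2 fold change, CGRP against saline, was −0.22 over the members and 0.0047 over all genes tested, with 3 members above 0 and 7 below. In 5 members the CGRP and saline libraries did not overlap, *Bcl2l1*, *Bax* and *Bid* lying below and *Mcl1* and *Pmaip1* above, against 24.1% of all genes tested (11.9% above and 12.3% below). In neutrophils, 0 of the 9 members tested passed, where 248 of 9819 genes did (2.53%; 148 higher, 1.51%, and 100 lower, 1.02%); *Bcl2a1d* had too few counts to be tested. edgeR and DESeq2 also called 0 of them. At an unadjusted p of 0.05, limma-voom gave 5 of the 9 (*Bcl2*, *Mcl1*, *Bcl2a1b*, *Bcl2l11* and *Pmaip1*), against 12.8% of all genes tested. The median was 0.014 over the members and 0.00080 over all genes, and groups did not overlap for 3 members (*Bcl2* below, *Mcl1* and *Bcl2a1b* above, the last not on the scale of the 12 libraries), against 17.8% of all genes (8.96% above and 8.83% below).

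**Figure D1:**
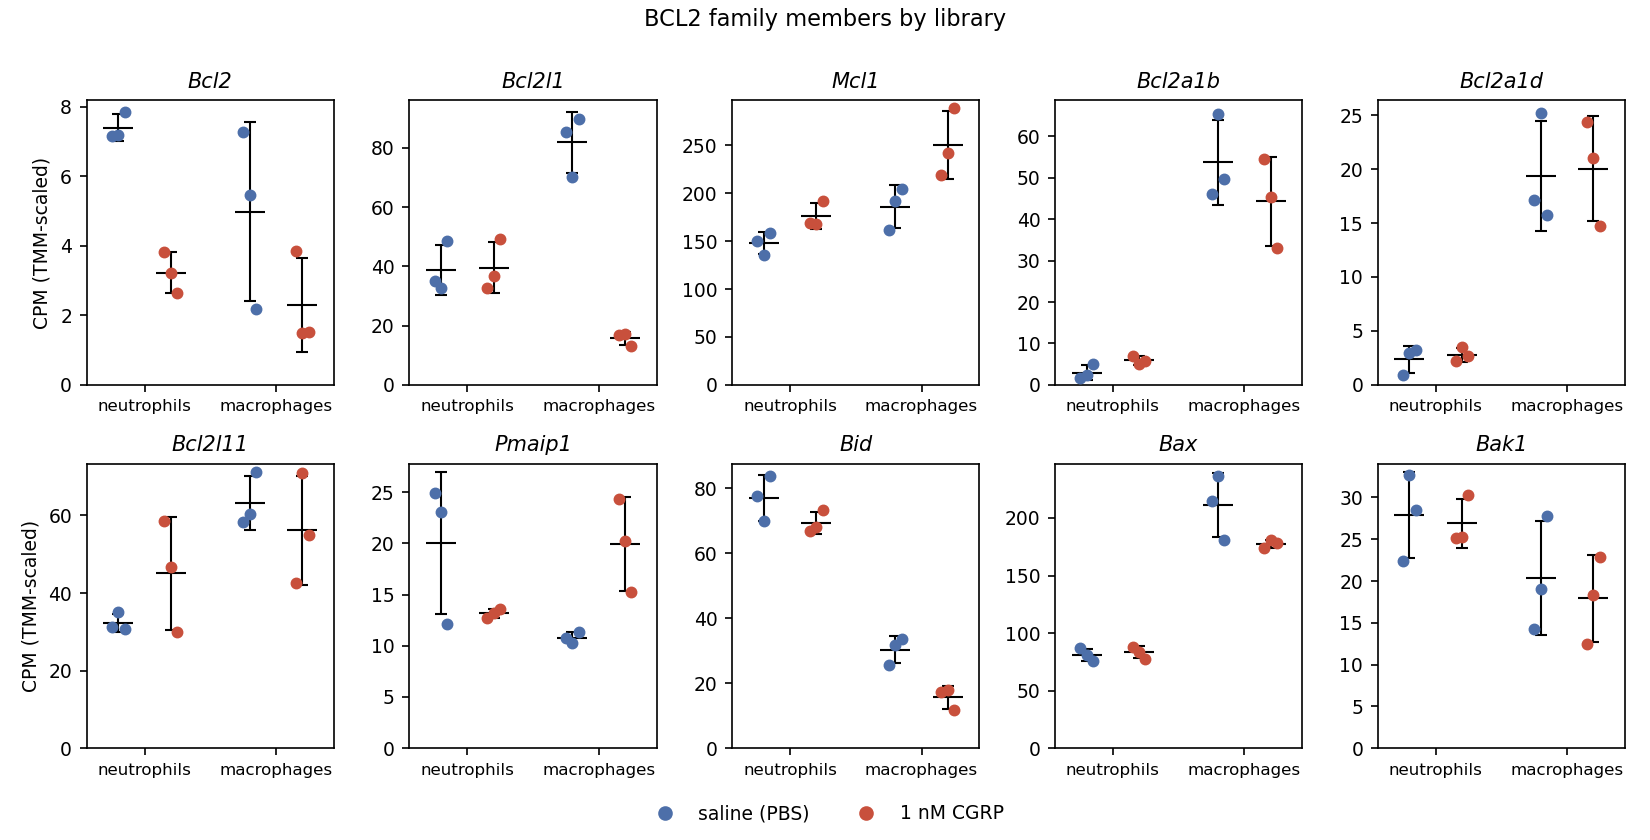
TMM-scaled CPM of each member in the 12 libraries, 1 panel per gene with its own vertical axis from 0; points are libraries, horizontal bars are means and whiskers are SD (n = 3). In macrophages the 3 CGRP libraries of Bcl2l1 lie between 13.2 and 17.2 CPM, below the 3 saline libraries at 70.3 to 89.9 CPM, while in neutrophils its groups overlap.

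BCL-XL, the product of *Bcl2l1*, is a mitochondrial pro-survival protein. Its gene had 293, 232 and 246 counts in the saline macrophages and 52, 46 and 26 in the CGRP macrophages, or 85.3, 70.3 and 89.9 CPM against 16.7, 17.2 and 13.2 CPM. Every CGRP library was far below every saline library, and the means were 81.8 ± 10.3 and 15.7 ± 2.19 CPM (SD, n = 3). The log2 fold change was −2.34 (SE 0.20, limma-voom adjusted p = 1.97e-06), giving it rank 21 of the 9393 genes tested by p. The call was kept in all 6 leave-one-out fits, which each omit 1 library (log2 fold change −2.45 to −2.25), and under all 10 other settings run (−2.39 to −2.32). In neutrophils *Bcl2l1* stood at 35.2, 32.7 and 48.4 CPM under saline and at 32.8, 36.7 and 49.1 CPM under CGRP. The groups overlapped throughout, with the third library the highest of each, and the log2 fold change was 0.01 (SE 0.17, adjusted p = 0.988). The difference of the CGRP effect between the cell types, macrophages minus neutrophils, was tested as an interaction over the 12 libraries, where 252 of 10694 genes passed (2.36%; 1.21% with a higher effect in macrophages and 1.15% with a lower one). For *Bcl2l1* it was −2.35 (SE 0.28, limma-voom adjusted p = 1.19e-05), and all 12 leave-one-out fits kept it. BCL-XL is also known for its role in red cell precursors, and the erythroid markers were read beside it: 0 of 9 passed in neutrophils and 0 of the 3 tested in macrophages (limma-voom, edgeR and DESeq2), with 0 at an unadjusted limma-voom p under 0.05. Their sums were 6764, 7590 and 6058 CPM in saline neutrophils and 7486, 6359 and 6269 CPM in CGRP neutrophils, which overlapped. Their part in the neutrophil level of *Bcl2l1* was not tested.

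MCL-1 is a short-lived pro-survival protein that binds NOXA and BIM. *Mcl1* stood at 162, 192 and 204 CPM in saline macrophages and at 219, 242 and 289 CPM in CGRP macrophages. All 3 CGRP libraries lay above the saline ones, but the difference of 0.42 on the log2 scale (SE 0.14) did not pass in limma-voom (adjusted p = 0.0965). It passed without CGRP replicate 1 (0.52, adjusted p = 0.0416), with library quality weights (0.52, adjusted p = 0.00788) and in 1 fit over all 12 libraries (0.42, adjusted p = 0.0292), in which the neutrophil libraries also set the spread. In neutrophils it was 150, 136 and 159 CPM under saline and 168, 167 and 191 CPM under CGRP. Here too the groups did not overlap, with log2 fold change 0.24 (SE 0.09, adjusted p = 0.243). The interaction was 0.19 (SE 0.17, adjusted p = 0.730).

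*Bcl2*, the founding pro-survival member, was counted in few reads. In neutrophils it had 23, 24 and 22 counts under saline and 12, 11 and 6 under CGRP, or 7.40 ± 0.38 and 3.23 ± 0.59 CPM. The CGRP libraries were all below the saline libraries, with a log2 fold change of −1.14 (SE 0.33), which did not pass over all genes (limma-voom adjusted p = 0.0835; 0.0667 to 0.271 over the other settings). In macrophages it had 25, 18 and 6 counts under saline and 12, 4 and 3 under CGRP. These groups overlapped, and their difference of −1.01 (log2, SE 0.55, adjusted p = 0.334) passed only with library quality weights (−1.51, adjusted p = 0.0478).

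The A1 copies were scarce in neutrophils and more abundant in macrophages. *Bcl2a1b* had 5, 8 and 14 counts in saline neutrophils and 22, 17 and 13 in CGRP neutrophils. In counts the highest saline library was above the lowest CGRP library, in CPM they nearly met, at 4.987 and 4.990, and on the scale of the 12 libraries they overlapped, at 5.04 and 4.99 (log2 fold change 1.12, SE 0.40, adjusted p = 0.193). *Bcl2a1d* had 3, 10 and 9 counts under saline and 7, 12 and 6 under CGRP, which overlapped. In macrophages *Bcl2a1b* stood at 46.0, 65.5 and 49.7 CPM under saline and at 54.6, 45.4 and 33.0 CPM under CGRP (log2 fold change −0.26, SE 0.20, adjusted p = 0.530). *Bcl2a1d* stood there at 17.2, 25.2 and 15.7 CPM against 24.4, 21.0 and 14.7 CPM (0.08, SE 0.25, adjusted p = 0.898), and both sets of groups overlapped. Of the other copies, *Bcl2a1a* had at most 20 counts and *Bcl2a1c* at most 3 in any library. With the 4 copies added into 1 row, the log2 fold change was 0.84 (SE 0.30, limma-voom adjusted p = 0.178) in neutrophils and −0.12 (SE 0.19, adjusted p = 0.789) in macrophages.

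**Figure D2:**
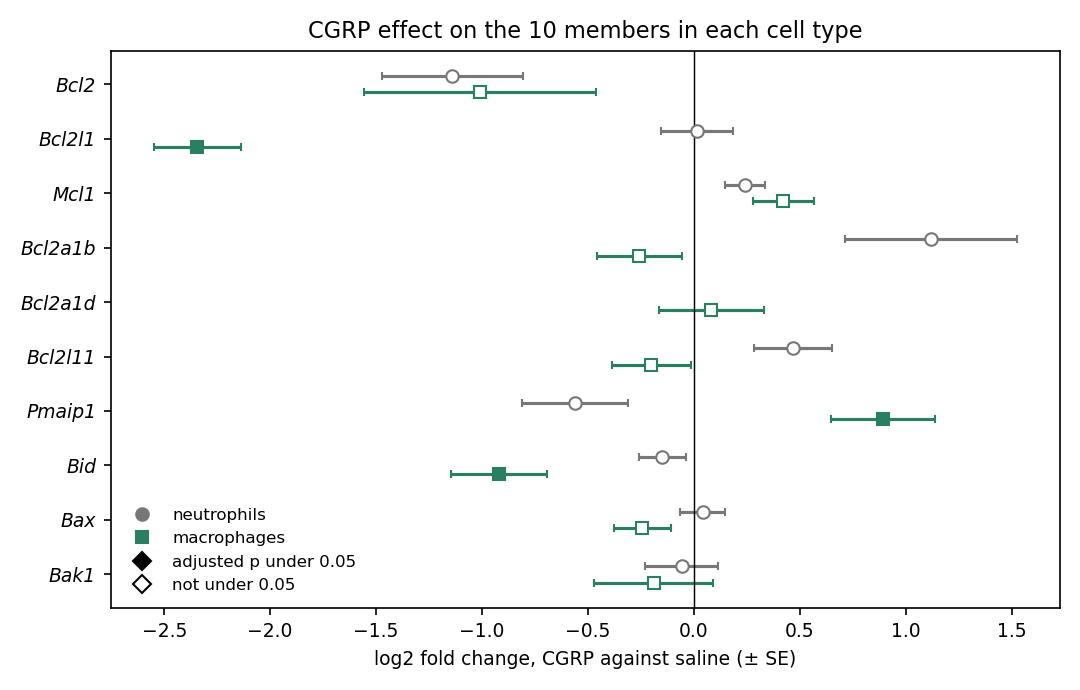
Log2 fold change of each member, CGRP against saline, with its standard error as the horizontal whisker (limma-voom, 6 libraries per cell type); circles are neutrophils, squares are macrophages, and filled symbols have an adjusted p under 0.05. The filled macrophage symbols are Bcl2l1 at −2.34, Bid at −0.92 and Pmaip1 at 0.89, and no neutrophil symbol is; Bcl2a1d was not tested in neutrophils.

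BID is the BH3-only protein that links death receptors to mitochondria when caspase-8 cuts it. In macrophages *Bid* had 88, 105 and 92 counts under saline and 54, 48 and 23 under CGRP, or 25.6, 31.8 and 33.6 CPM against 17.3, 18.0 and 11.7 CPM. The CGRP libraries were all below the saline libraries, and the log2 fold change was −0.92 (SE 0.23, limma-voom adjusted p = 0.02001). It passed under the 10 other settings and in 4 of 6 leave-one-out fits, being lost without CGRP replicate 2 (adjusted p = 0.0580) and without CGRP replicate 3 (adjusted p = 0.0951). In neutrophils *Bid* was 77.6, 69.8 and 83.7 CPM under saline and 66.9, 68.1 and 73.3 CPM under CGRP. These groups overlapped, with log2 fold change −0.15 (SE 0.11, adjusted p = 0.645), and the interaction of −0.75 (SE 0.24) did not pass (adjusted p = 0.116). *Bcl2l13*, the gene that overlaps *Bid*, had a log2 fold change of −0.09 in macrophages (adjusted p = 0.875) and 0.26 in neutrophils (adjusted p = 0.538).

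NOXA, from *Pmaip1*, is a BH3-only protein that neutralizes MCL-1. In macrophages *Pmaip1* had 37, 34 and 31 counts under saline and 76, 54 and 30 under CGRP, or 10.8, 10.3 and 11.3 CPM against 24.4, 20.2 and 15.2 CPM. Scaled for depth, all 3 CGRP libraries were above the saline libraries, the third by the least, and the log2 fold change was 0.89 (SE 0.25, limma-voom adjusted p = 0.0363). This call was close to the threshold: 2 of 6 leave-one-out fits kept it (adjusted p 0.0260 to 0.143), and it was lost without saline replicate 1 or 2 and without CGRP replicate 1 or 2. Of the 10 other settings 6 kept it, and it was lost in DESeq2 (adjusted p = 0.0524), without TMM (0.0609), without the filter on low counts (0.0562) and with counts thinned to the smallest library (0.138). In neutrophils the saline libraries stood at 24.9, 23.1 and 12.1 CPM and the CGRP libraries at 12.7, 13.2 and 13.6 CPM. Saline replicate 3 lay below all CGRP libraries while the other saline libraries were well above them, and the log2 fold change was −0.56 (SE 0.25, adjusted p = 0.334), or −0.86 (adjusted p = 0.0288) without that library. The interaction was 1.47 (SE 0.37, limma-voom adjusted p = 0.0300), which 3 of 12 leave-one-out fits kept (adjusted p 0.00347 to 0.105).

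BIM, from *Bcl2l11*, binds every pro-survival member and is a known mediator of death when growth factors are withdrawn. In neutrophils *Bcl2l11* was at 31.2, 35.1 and 30.6 CPM under saline and at 58.6, 46.7 and 29.8 CPM under CGRP. CGRP replicate 3 was below every saline library while the other CGRP libraries were above them all, so the groups overlapped. The log2 fold change was 0.47 (SE 0.19, limma-voom adjusted p = 0.259), and 0.69 (adjusted p = 0.0129) without CGRP replicate 3. In macrophages it was 58.2, 60.3 and 71.3 CPM under saline and 42.7, 70.9 and 54.9 CPM under CGRP, overlapping groups with log2 fold change −0.20 (SE 0.18, adjusted p = 0.609).

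Of the pore-forming effectors, neither passed in either cell type. *Bax* in macrophages stood at 215, 237 and 181 CPM under saline and at 174, 181 and 178 CPM under CGRP. The highest CGRP library (180.7 CPM) lay just under the lowest saline library (181.3 CPM), and the log2 fold change was −0.24 (SE 0.14, limma-voom adjusted p = 0.350). In neutrophils *Bax* was 81.0 ± 5.54 CPM under saline and 83.2 ± 5.16 CPM under CGRP (SD, n = 3), overlapping groups (0.04, SE 0.11, adjusted p = 0.920). *Bak1* was 27.9 ± 5.15 and 26.9 ± 2.93 CPM in neutrophils (−0.06, SE 0.17, adjusted p = 0.939) and 20.4 ± 6.85 and 17.9 ± 5.19 CPM in macrophages (−0.19, SE 0.28, adjusted p = 0.771). Its groups overlapped in both.

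**Figure D3:**
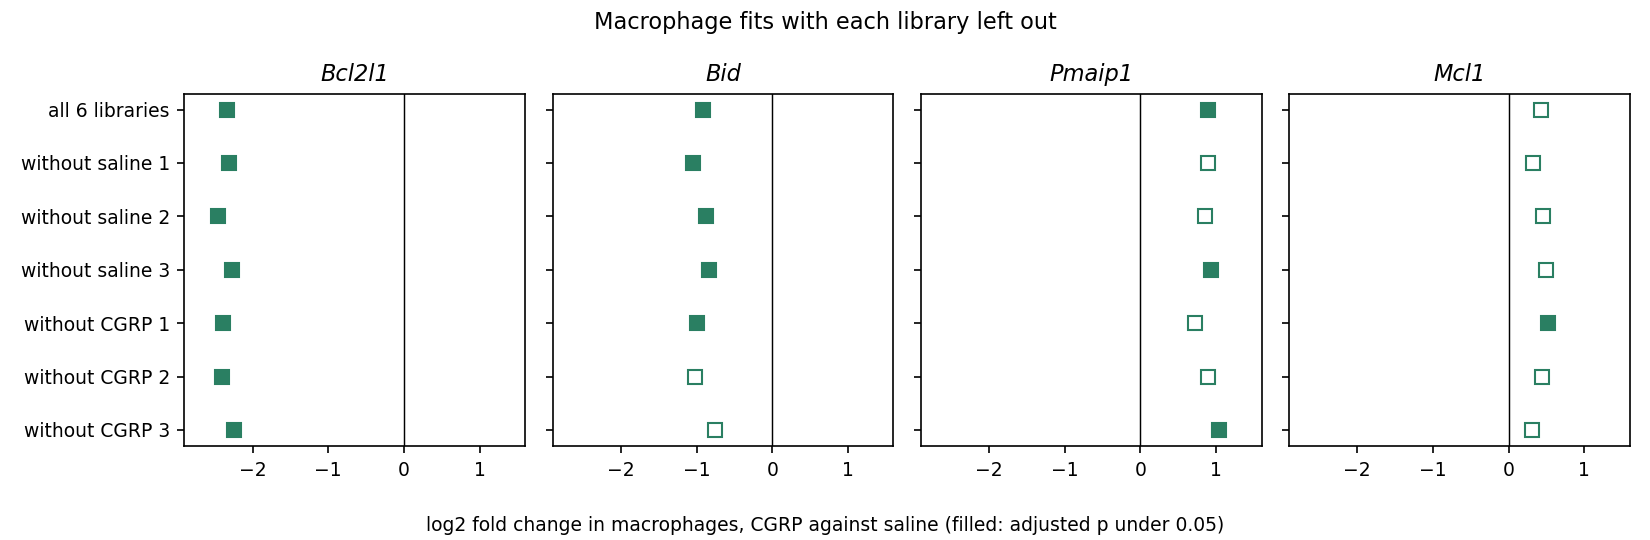
Log2 fold change in macrophages, CGRP against saline (limma-voom), with all 6 libraries (top) and with each library left out in turn, for 4 members; filled squares have an adjusted p under 0.05. Bcl2l1 stays between −2.45 and −2.25 and filled throughout, Bid is filled in 4 of the 6 fits with a library left out, Pmaip1 in 2 and Mcl1 in 1.

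Between saline-treated cells, most members differed in level, in either direction. The contrast of macrophages with neutrophils in the 12-library fit passed for 8 of the 10 members, where 7263 of 10694 genes passed, a similar share (67.9%; 3472 higher in macrophages, 32.5%, and 3791 lower, 35.4%). Macrophages had more *Bcl2a1b* (53.0 ± 10.3 against 3.03 ± 1.80 CPM, on the scale of the 12 libraries, SD, n = 3), with a log2 difference of 4.22 (SE 0.40, limma-voom adjusted p = 3.41e-09). With the A1 copies added into 1 row the difference was 3.57 (SE 0.31, adjusted p = 7.14e-10). *Bcl2a1d* (3.06), *Bax* (1.33), *Bcl2l1* (1.05) and *Bcl2l11* (0.91) were also higher in macrophages. *Bid* (−1.40), *Pmaip1* (−0.89) and *Bak1* (−0.56) were lower. The last passed in 8 of 12 leave-one-out fits (adjusted p up to 0.249) and in 4 of 8 other settings (adjusted p up to 0.0943). Some of the 12 fits omit a CGRP library. In those the saline libraries compared stay the same, and only the spread, scaling and filter can change. *Bcl2* (−0.69, adjusted p = 0.0934) and *Mcl1* (0.28, adjusted p = 0.0511) did not pass, though *Mcl1* did in 3 of 12 leave-one-out fits and 3 of 8 other settings, and *Bcl2* did in 1 of 12 leave-one-out fits (adjusted p = 0.0365). For *Bcl2l1* the order of the 4 groups was saline macrophages (80.7 ± 9.91 CPM), then CGRP neutrophils (39.8 ± 8.25 CPM) and saline neutrophils (39.4 ± 8.39 CPM), which overlapped, then CGRP macrophages (15.5 ± 2.09 CPM), whose highest library at 17.0 CPM was under the lowest neutrophil library at 33.5 CPM. For *Bid* both neutrophil groups (78.3 ± 6.58 and 69.8 ± 2.92 CPM) were above both macrophage groups (29.9 ± 4.14 and 15.4 ± 3.35 CPM).

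The other genes of the pathway were read from lists fixed by name. Of all genes tested, 12.8% in neutrophils and 19.8% in macrophages had an unadjusted limma-voom p under 0.05. Of the other BCL2 family genes, 0 of 10 tested passed in neutrophils and 0 of 11 in macrophages, also in edgeR and DESeq2, with 0 and 1 at an unadjusted limma-voom p under 0.05. The medians of their log2 fold changes were −0.02 and 0.02. Downstream of mitochondria (the apoptosome, caspases, inhibitors of apoptosis and their antagonists), 0 of 14 passed in neutrophils (also in edgeR and DESeq2), with 2 (14.3%) at an unadjusted p under 0.05 in limma-voom. In macrophages 2 of 15 fell, where 3.97% of all genes tested were called lower, and 5 (33.3%) had an unadjusted p under 0.05. These were *Htra2*, a mitochondrial protease that antagonizes inhibitors of apoptosis (48.9, 53.6 and 43.9 CPM against 28.9, 29.2 and 35.6 CPM; −0.66, SE 0.17, limma-voom adjusted p = 0.0288), and *Birc5* (survivin). *Birc5*, which also serves in cell division, was 55.6, 49.7 and 33.6 CPM under saline and 34.98, 18.7 and 18.8 CPM under CGRP, overlapping groups (−0.94, SE 0.25, adjusted p = 0.0337). Each kept its call in 2 of 6 leave-one-out fits. Among 16 partners and regulators of BCL2 proteins, 0 passed in neutrophils (limma-voom, edgeR and DESeq2), with 0 at an unadjusted p under 0.05, and 1 fell in macrophages, also with 1 (6.25%) at an unadjusted p under 0.05. It was *Vdac2*, a mitochondrial channel that holds BAK, at 323, 369 and 283 CPM against 247, 216 and 217 CPM (−0.51, SE 0.14, adjusted p = 0.0298). Its call held in 2 of 6 leave-one-out fits. Of the death receptor genes, 0 of 9 passed in each cell type, also in edgeR and DESeq2, with 1 (11.1%) and 2 (22.2%) at an unadjusted limma-voom p under 0.05, close to the shares of all genes tested. In neutrophils the median log2 fold change was 0.08 for the genes downstream of mitochondria, 0.07 for the partners and −0.07 for the death receptor genes, and in macrophages it was 0.0086, −0.06 and 0.06.

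Among 20 transcription factors and regulators that act on these genes or on cell survival, 1 rose in neutrophils, where 1.51% of all genes tested were called higher, and 4 rose and 1 fell in macrophages, where 3.46% were called higher and 3.97% lower. The call of *Relb* was lost in DESeq2 (adjusted p = 0.0545), without TMM (0.0872) and without the filter on low counts (0.0509). *Hif1a*, the oxygen-regulated factor known to prolong neutrophil life, rose in both: from 47.0, 48.9 and 46.0 to 106, 88.6 and 99.2 CPM in neutrophils (1.04, SE 0.12, limma-voom adjusted p = 1.09e-05) and from 51.8, 44.5 and 51.5 to 101, 112 and 130 CPM in macrophages (1.20, SE 0.15, adjusted p = 8.39e-05). The groups did not overlap in either cell type. *Myc*, a growth factor-driven regulator of proliferation, fell in macrophages from 25.6, 19.1 and 16.8 to 4.81, 5.998 and 5.59 CPM (−1.88, SE 0.31, adjusted p = 9.48e-04). *Stat3*, a known activator of *Bcl2l1* and *Mcl1* in other settings, rose in macrophages from 103, 83.0 and 126 to 166, 186 and 217 CPM (0.88, SE 0.16, adjusted p = 0.00246). The NF-κB subunits *Rel* (0.76, adjusted p = 0.0136) and *Relb* (0.68, adjusted p = 0.0355) rose there as well, in 3 and 2 of 6 leave-one-out fits, whereas *Hif1a*, *Myc* and *Stat3* passed in 6 of 6. None of these 5 had overlapping groups. The medians over the 20 regulators were −0.04 in neutrophils and −0.12 in macrophages.

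**Figure D4:**
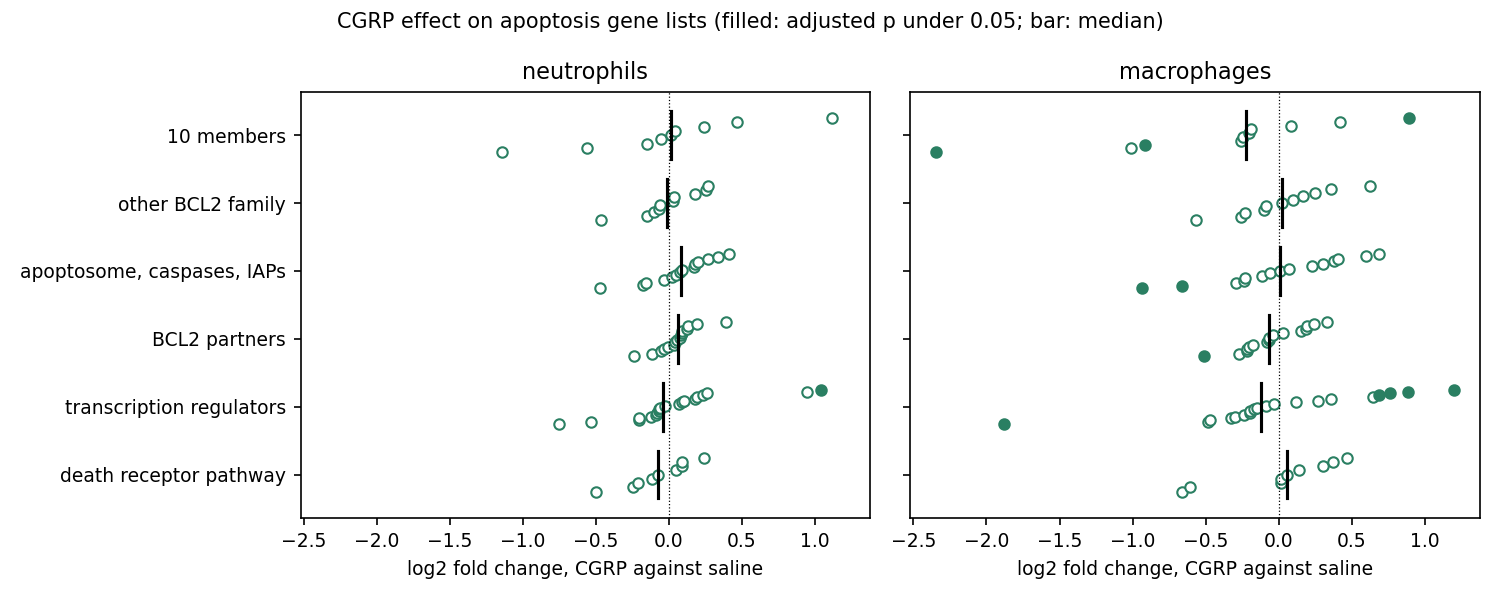
Log2 fold change of each gene tested, CGRP against saline (limma-voom), in 6 lists of apoptosis genes and their regulators, neutrophils left and macrophages right; filled points have an adjusted p under 0.05 and black bars are list medians. Most filled points are in macrophages, led by Bcl2l1 at −2.34 and Myc at −1.88, and the only filled point in neutrophils is Hif1a at 1.04.

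Some marker lists of proliferation and of other cell types were read beside these results. Of 6 proliferation markers 4 fell in macrophages (*Mki67* −1.46, *Ccnb1* −1.01, *Birc5* −0.94 and *Top2a* −0.73, limma-voom adjusted p 0.0337 to 0.0457), where 3.97% of all genes tested were called lower. Each of the 4 kept its call in 2 of 6 leave-one-out fits and lost it with counts thinned to the smallest library (adjusted p 0.0504 to 0.0629). The CGRP libraries of *Mki67*, *Ccnb1* and *Top2a* lay below the saline libraries, like those of *Bcl2l1* and *Bid*, and those of *Birc5* overlapped. The summed level of the 6 was 259, 276 and 183 CPM in saline macrophages and 188, 135 and 117 CPM in CGRP macrophages, overlapping sums with *Stmn1* the most abundant and none at 0. In neutrophils 0 of 6 passed in limma-voom, edgeR and DESeq2. At an unadjusted p under 0.05, limma-voom and edgeR each gave 2 (33.3%, against 12.8% of all genes tested). DESeq2 gave 0, against 7.9% of all genes tested. The sums were 993, 996 and 949 CPM in saline and 933, 901 and 896 CPM in CGRP libraries, which did not overlap. *Top2a* was the most abundant and none was at 0. The 8 T and NK cell markers, led by *Nkg7* and with none at 0, summed to 114, 123 and 131 CPM in saline and 109, 85.1 and 110 CPM in CGRP neutrophils, which did not overlap; 0 of the 2 tested passed (limma-voom, edgeR and DESeq2), with 1 at an unadjusted limma-voom p under 0.05. In macrophages the 12 neutrophil markers summed to 343, 403 and 312 CPM in saline and 461, 435 and 427 CPM in CGRP libraries. The 12 macrophage and monocyte markers summed to 14961, 15875 and 14762 CPM against 16500, 16857 and 17659 CPM. Both sums were higher in each CGRP library than in each saline library. Singly, 0 of the 9 neutrophil markers tested passed (median log2 fold change 0.38), and 0 of the 12 macrophage markers (median 0.21). Both counts were also 0 in edgeR and DESeq2. At an unadjusted limma-voom p under 0.05 they were 2 and 3 (22.2% and 25%), against 19.8% of all genes tested. The part of these cells, and of proliferating cells, in the changes of the members, *Myc* and *Vdac2* was not tested.

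The genes whose log2 CPM tracked *Bcl2l1* and *Pmaip1* most closely over the 12 libraries were listed for description, among 10694 genes. For *Bcl2l1* they were *Mapre2* (Pearson r = 0.918), *A630033H20Rik* (0.901) and *Lmo2* (0.889). For *Pmaip1* they were *Map4k4* (0.838), *Polm* (0.827) and *Higd2a* (0.790). The libraries of a cell type share their culture.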

How the data were processed

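RNA from 12 libraries was primed at the poly-A tail with a unique molecular identifier. The authors removed PCR copies with the nfCore/RNAseq pipeline, used STAR for alignment (GRCm38) and featureCounts for gene counts, and deposited the raw counts in 1 table per cell type. The annotation release and strand setting are not given in the sources used here. Positions are those of GENCODE (GRCm38), which held 52489 of the 52636 gene identifiers, and promoter windows from RefSeq.

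Genes were kept by filterByExpr (minimum count 10), scaled by TMM and tested by limma-voom (lmFit, eBayes, threshold 0.05), as the paper names it. CPM are relative to the TMM-scaled library size of each cell type, or of the 12 libraries where said. R 4.3.3, limma 3.58.1, edgeR 4.0.16, DESeq2 1.42.0, Python 3.11.15, pandas 2.3.3 and matplotlib 3.10.9 were used, with a fixed random seed. The steps were tested on simulated data.

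The members and gene lists were chosen with earlier results of these data known. All members are named, with the list genes that passed in a cell type, the A1 copies, overlapping genes, leading markers and markers at 0, and the 3 genes most correlated with each called member (log2 CPM, prior count 2); those of *Bid* are not reported here. Results were recomputed with DESeq2, with edgeR (quasi-likelihood), with size factors from DESeq2 in voom, on library totals without TMM, with no filter or a minimum of 10 counts in all libraries, with quality weights, with a replicate block, in 1 fit over 12 libraries and on thinned counts (both within cell types only), with the A1 copies in 1 row, and with each library left out; a gene that a filter removed under a setting has no value there.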

Additional observations from a re-analysis of the deposited data

Results flagged for a closer look

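The CGRP effects on *Bcl2l1* and *Pmaip1* differed between the cell types by the interaction test, macrophages minus neutrophils. For *Bcl2l1* the difference on the log2 scale was −2.35, with −2.34 in macrophages and 0.01 in neutrophils, and it passed in limma-voom in 12 of 12 fits that left out a library. For *Pmaip1* it was 1.47, with 0.89 in macrophages and −0.56 in neutrophils, and it passed in 3 of 12 such fits and in 6 of the 8 other settings.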

How the results depend on the processing

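The call of *Bcl2l1* in macrophages and in the interaction was kept under all settings run. In 1 fit over 12 libraries 137 genes passed in neutrophils (248 as reported) and 1050 in macrophages (698); with library quality weights 1406 passed in macrophages and 520 in the interaction (252). Members called went from 3 to 5 in macrophages with quality weights (*Bcl2* and *Mcl1* added), and from 2 to 1 in the interaction without TMM and without the filter (*Pmaip1* lost). Leaving out 1 library gave 138 to 234 genes in neutrophils, 347 to 765 in macrophages and 149 to 328 in the interaction. It gave 0 to 1 members in neutrophils (*Pmaip1* without saline replicate 3 or *Bcl2l11* without CGRP replicate 3), 1 to 3 in macrophages (1 without CGRP replicate 2), 1 to 2 in the interaction and 7 to 9 between saline-treated cell types. Without TMM the share of called genes that were higher was 70.1% in neutrophils (59.7% with TMM), 37.7% in macrophages (46.6%; 245 higher and 405 lower without TMM) and 36.4% in the interaction (51.2%), where the median of all genes shifted by −0.12.

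Genes that did not pass changed sign under some settings; the cause was not tested. In macrophages *Bak1* was 0.095 with quality weights, *Bcl2a1d* −0.12 with the copies in 1 row, and *Bcl2l13* 0.070 with thinned counts. In the interaction *Bcl2* was −0.0028 without TMM and −0.37 with quality weights, and *Bak1* 0.18 with quality weights. With 1 library left out, log2 fold changes in neutrophils ran from −0.12 to 0.17 for *Bcl2l1*, −0.0055 to 0.090 for *Bax* and −0.21 to 0.071 for *Bak1*. In macrophages they ran from −0.082 to 0.29 for *Bcl2a1d*, −0.40 to 0.0052 for *Bcl2l11*, −0.42 to 0.075 for *Bak1* and −0.20 to 0.10 for *Bcl2l13*, and in the interaction from −0.59 to 0.24 for *Bcl2a1d*, −0.32 to 0.46 for *Bcl2* and −0.40 to 0.14 for *Bak1*.

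Libraries that share a replicate number had correlated deviations from the group means of 0.04, −0.01 and 0.14 in neutrophils and 0.06, −0.18 and 0.27 in macrophages, so the numbers were not taken to pair them, and not every library correlated best with its own number. A replicate block gave 254 genes in neutrophils, 905 in macrophages, 288 in the interaction and 7369 between saline-treated cell types, with 0, 3, 2 and 9 members among them, the last by adding *Mcl1*. Counts of 3 to 25 per library limit *Bcl2* in each group and *Bcl2a1b* and *Bcl2a1d* in neutrophils.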
